A study of Caenorhabditis elegans with 24 samples.

Results

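The cytochrome P450 genes of Caenorhabditis elegans, which carry symbols beginning with cyp-, were followed across 8 groups of whole worms. The deposited expression table held 70 cyp genes among 16927 genes. Of these, 55 had a mean of at least 1 CPM (a read count scaled to library size) in at least 1 group and were kept as members, and 15 did not. The closest genes to that limit were cyp-33C2 and cyp-25A5, whose highest group means were 1.08 and 1.23 CPM, and cyp-34A10 and cyp-33E3, which were left out at 0.866 and 0.824 CPM.

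PolyA RNA of whole worms was sequenced at the L4 or young adult stage, after 2.5 days at 20 °C on RNAi bacteria started at the first larval stage. The VC3201 strain, labelled as an atfs-1 mutant with no allele given, and the N2 wild type were each grown on 4 diets. These were a mixture of cco-1 and elt-2 RNAi, elt-2 RNAi mixed with control RNAi, cco-1 RNAi mixed with control RNAi, and control RNAi alone. Each of the 8 groups had 3 replicates, 24 libraries in all. The labels give each mixture as 50% of each RNAi, whereas a key deposited with the table gives 25% for elt-2 RNAi, so the dose of elt-2 RNAi is uncertain. Cytochrome c oxidase, the last complex of the respiratory chain, contains the product of cco-1. ELT-2 is the GATA factor that drives most genes of the intestine, and ATFS-1 switches on genes that protect mitochondria under stress. Only 1 mutant strain was used, so effects of atfs-1 and of other differences between the strains cannot be told apart. Whether replicates came from separate cultures is not stated in the labels, and p-values measure the spread between these samples, which may be technical.

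Cytochrome P450 enzymes are heme proteins of the endoplasmic reticulum or, in a few cases, of mitochondria, which insert an oxygen atom into lipids, hormones and foreign compounds. Those of the endoplasmic reticulum receive electrons from a P450 reductase, which emb-8 encodes in C. elegans. Nematode P450 genes have expanded in the CYP2 and CYP3 clans, whose members are often induced by drugs and toxins, many of them in the intestine. Members of the CYP4 clan are better known for fatty acids and other lipids of the body itself.

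Among the 55 members, 28 belonged to the CYP2 clan (cyp-14, cyp-33, cyp-34, cyp-35 and cyp-36 genes), 14 to the CYP3 clan (cyp-13, cyp-25 and cyp-43), 12 to the CYP4 clan (cyp-29, cyp-31, cyp-32, cyp-37 and cyp-42), and cyp-44A1 alone to the mitochondrial clan. The genes lay on chromosome V in 29 cases, on II and IV in 7 each, on X in 6, on III in 5 and on I in 1. In the gene annotation used for the genome build WBcel235, cyp-25A5 and cyp-31A1 were listed as pseudogenes and the others as protein-coding genes. The highest group mean reached 10 CPM or more for 25 members, and lay between 1 and 2 CPM for 8.

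The deposited CPM had been quantile-normalized by the authors, so that every library summed to the same total and library sizes could not be read from the totals. Reads were ranked back from tied low values, and 1 CPM stood for 8 to 39 reads per library. This number went with the groups, at 8 to 10 in VC3201 and 13 to 14 in N2 on control RNAi. It was 18 to 20 on cco-1 RNAi in both strains. In the groups with elt-2 RNAi it was 20 to 25 in N2 and 34 to 39 in VC3201. Reads per CPM thus differed with strain and RNAi, and changes were also fitted with that normalization partly undone. Correlations between libraries of a group were 0.995 to 0.998. The targeted genes followed the labels: cco-1 averaged 128 ± 5.85 CPM in N2 worms on cco-1 RNAi and 292 ± 35.6 CPM on control RNAi, elt-2 averaged 10.5 ± 0.958 CPM in N2 worms on elt-2 RNAi and 17.3 ± 1.70 CPM on control RNAi, and atfs-1 averaged 21.3 ± 1.31 CPM in VC3201 and 74.5 ± 3.47 CPM in N2 worms on control RNAi (SD, n = 3 each). Levels below are CPM, and changes are differences of log2(CPM + 1) with their standard error, which understate the change of genes near 1 CPM. A gene was called changed at an adjusted p under 0.05 in limma, with Benjamini-Hochberg adjustment over the 14561 genes tested. Since a member could pass the 1 CPM limit through the one group where it was high, counts of members are descriptions of those that passed. cyp-13A12, cyp-13A7, cyp-13A8 and cyp-33C2 passed only through N2 worms on cco-1 RNAi, and cyp-35A4 only through VC3201 worms on control RNAi. Their differences from that 1 group had to arise, so they are given as descriptions with no test, although the counts of calls include them.

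Members differed in how often they moved. cyp-33C8, cyp-13A5 and cyp-36A1 were called changed in each of the 11 comparisons made, and cyp-34A2 in none as the table was deposited, with group means from 0.864 ± 0.433 to 1.83 ± 0.281 CPM (SD, n = 3 each). cyp-25A4 and cyp-25A5 were each called in 1 comparison only. When the authors' quantile normalization was partly undone, cyp-34A2 and cyp-25A5 gained calls, with elt-2 RNAi in VC3201 at 0.61 (adjusted p = 0.00152) and 0.52 (adjusted p = 0.000617), and the call of cyp-25A4 in that comparison turned from lower (-0.38) to higher (0.29, adjusted p = 0.0395).

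**Figure D1:**
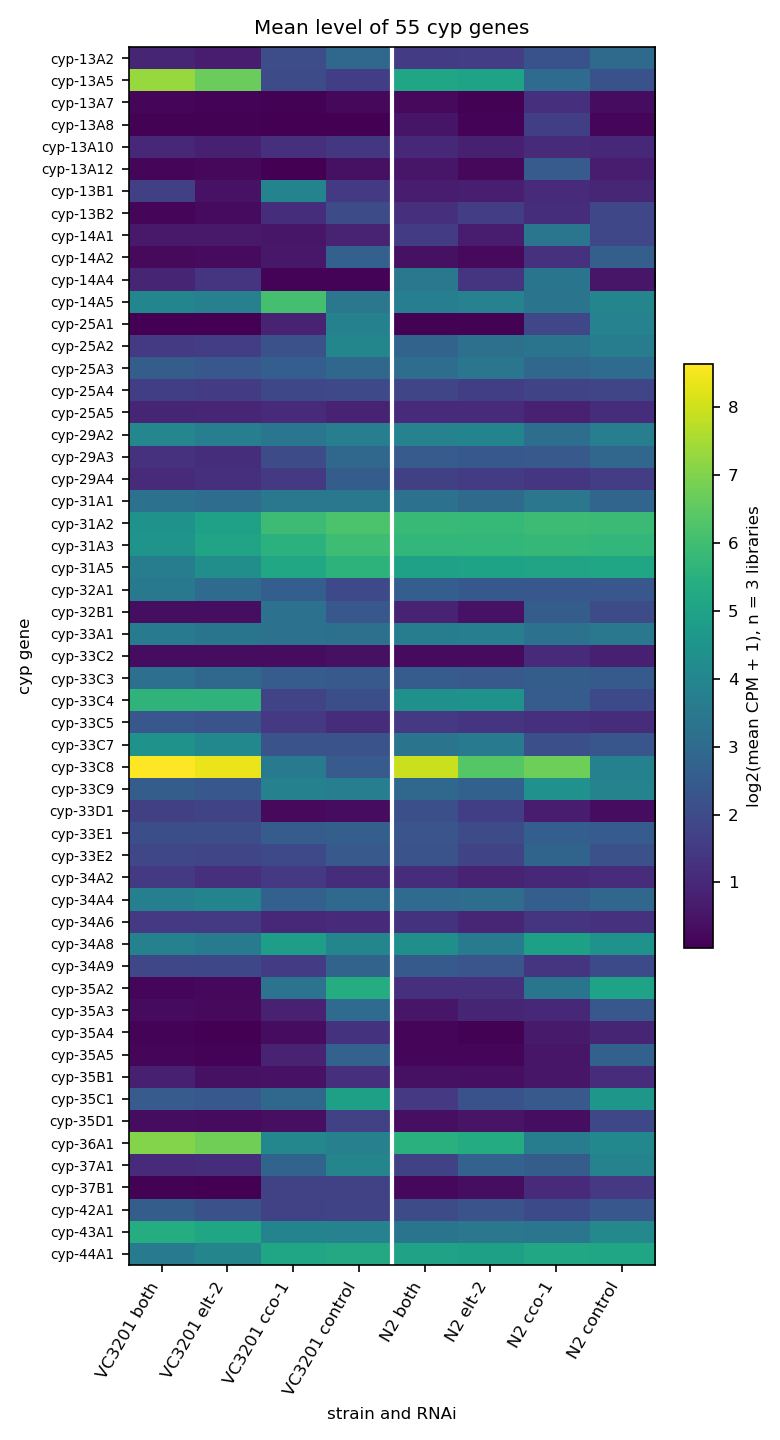
Mean level of the 55 cyp genes (rows) in the 8 groups (columns, VC3201 left and N2 right of the white line), as log2(mean CPM + 1) over 3 libraries. cyp-33C8 and cyp-13A5 are brightest with both RNAi in VC3201 (398 and 158 CPM), and the cyp-35 genes are brightest in the 2 control groups.

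The first question was how the cyp genes responded to cco-1 RNAi in N2. Here 14 of 55 members rose and 21 fell (63.6% of members changed), against 33.8% of all genes tested (17.5% higher and 16.4% lower). Apart from genes admitted by the cco-1 group alone, cyp-33C8, cyp-14A4 and cyp-14A1 led the rise, and the cyp-35 family with cyp-25A1 led the fall. Other genes of the cyp-14 and cyp-13 families fell, namely cyp-14A2, cyp-14A5, cyp-13A2 and cyp-13B2. The median absolute change was 0.45 over members and 0.15 over all genes tested. Markers of other tissues moved in the same comparison, with 6 of 7 sperm markers, 3 of 6 body wall muscle, 3 of 5 pharynx and 5 of 10 intestinal markers higher and 2 intestinal ones lower. The intestinal markers summed to 1594 to 1709 CPM on cco-1 RNAi and 1078 to 1129 CPM on control RNAi, and the part of these tissues in the changes of cyp genes was not tested.

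The strongest rise was that of cyp-33C8 (chromosome V), a CYP2 clan gene. It had 108, 103 and 103 CPM in N2 worms on cco-1 RNAi, against 12.2, 12.5 and 14.7 CPM on control RNAi. All 3 cco-1 libraries lay far above all 3 control libraries, a change of 2.91 ± 0.08 (adjusted p = 1.53e-21). cyp-14A4 (chromosome X), whose reporter has been used to follow detoxification responses to mitochondrial damage, had 10.3, 8.50 and 9.07 CPM on cco-1 RNAi and 0.318, 0.336 and 0.701 CPM on control RNAi. The control values of cyp-14A4 rested on 4, 5 and 10 reads and the cco-1 values on 212, 165 and 169 reads. It rose by 2.83 ± 0.12 (adjusted p = 4.55e-17).

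cyp-13A12 (chromosome III), known for a role in the behavioural response of worms to oxygen after hypoxia, had 4.62, 4.28 and 4.91 CPM on cco-1 RNAi, against 0.654, 0.419 and 0.929 CPM on control RNAi in N2. It averaged 4.60 CPM on cco-1 RNAi and 0.667 CPM on control RNAi, a difference of 1.76 ± 0.13 in a gene that passed the limit only through the cco-1 group. cyp-14A1 had 10.1, 8.97 and 9.83 CPM on cco-1 RNAi and 2.99, 2.59 and 2.45 CPM on control RNAi, a rise of 1.53 ± 0.12. cyp-13A8 had 2.47, 1.39 and 2.32 CPM on cco-1 RNAi and 0.0826, 0.0808 and 0.200 CPM on control RNAi, where it was counted by 1 to 3 reads. Its neighbour cyp-13A7, a gene known to be induced by the drug rifampicin, averaged 1.33 ± 0.257 CPM on cco-1 RNAi and 0.237 ± 0.0312 CPM on control RNAi (SD, n = 3 each). The differences were 1.43 ± 0.12 for cyp-13A8 and 0.91 ± 0.11 for cyp-13A7, both admitted by the cco-1 group alone.

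The other members that rose moved less. cyp-13A5 rose by 0.82 ± 0.09, with 8.08, 6.66 and 6.79 CPM on cco-1 RNAi and 3.13, 3.72 and 4.01 CPM on control RNAi. cyp-33E2, an enzyme that makes eicosanoids from eicosapentaenoic acid in the pharynx, rose by 0.63 ± 0.14 to 5.91 ± 0.651 CPM, against 3.44 ± 0.149 CPM (SD, n = 3 each). The pseudogene cyp-31A1, cyp-33C4, cyp-32B1, cyp-33C9, cyp-34A8 and cyp-33D1 rose by 0.37 to 0.62.

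**Figure D2:**
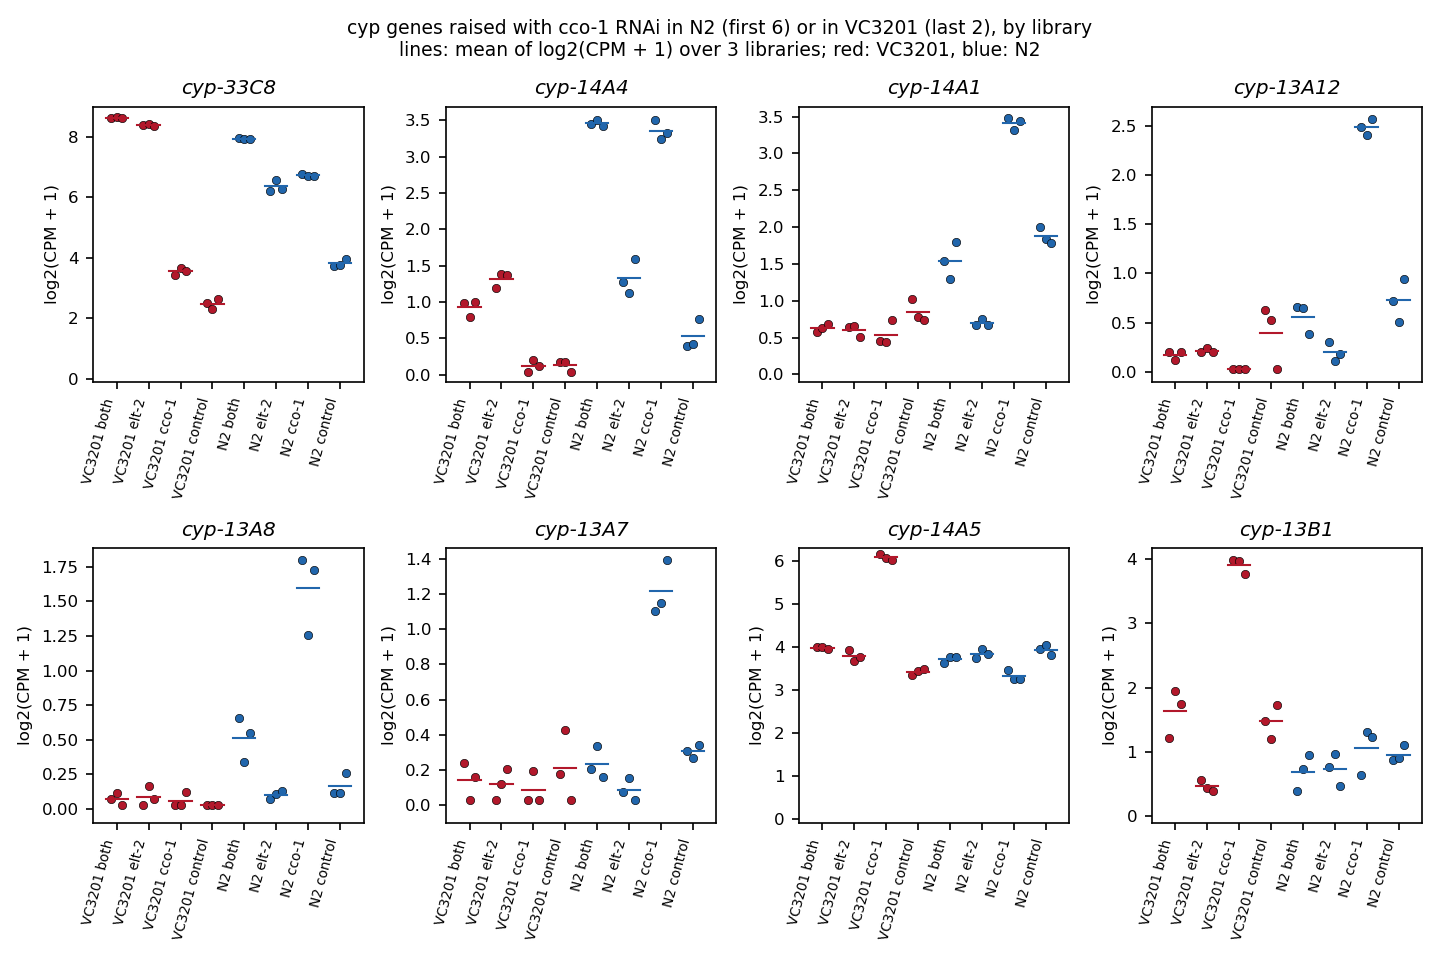
Level of 8 cyp genes in each library, as log2(CPM + 1), by group (VC3201 red, N2 blue); lines are means of 3 libraries. In N2 the first 6 genes are higher in the cco-1 than in the control libraries, while cyp-14A5 and cyp-13B1 are high in the VC3201 cco-1 libraries, at 67.6 and 14.1 CPM on average.

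The genes that fell with cco-1 RNAi in N2 were led by the cyp-35 family, CYP2 clan genes that are induced by many foreign compounds and have been linked to fat storage. Of its 7 members, 6 fell and none rose, against 16.4% of all genes tested called lower. The median change was -1.57 over the 7 and 0.01 over all genes tested. cyp-35A5 had 0.290, 0.437 and 0.665 CPM on cco-1 RNAi, against 5.50, 5.85 and 5.35 CPM on control RNAi, and fell by 2.17 ± 0.12 (adjusted p = 2.30e-14). cyp-35C1 had 4.19, 4.13 and 4.91 CPM on cco-1 RNAi, against 21.9, 24.5 and 22.5 CPM, a change of -2.15 ± 0.10. In both genes every cco-1 library lay below every control library.

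cyp-35A2, studied for its part in fat storage, averaged 9.37 ± 0.673 CPM on cco-1 RNAi and 31.5 ± 2.58 CPM on control RNAi (SD, n = 3 each), a change of -1.65 ± 0.12. cyp-35D1, which hydroxylates the anthelmintic thiabendazole, averaged 0.264 ± 0.142 CPM on cco-1 RNAi and 2.74 ± 0.185 CPM on control RNAi (SD, n = 3 each), a change of -1.57 ± 0.12. cyp-35A3 changed by -1.40 ± 0.17 and cyp-35B1, a gene regulated by the insulin pathway factor DAF-16, by -0.58 ± 0.13. The remaining member, cyp-35A4, changed by -0.26 ± 0.13 and was not called (adjusted p = 0.118).

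Outside the cyp-35 family, cyp-25A1 (CYP3 clan, chromosome III) had 2.68, 1.76 and 3.44 CPM on cco-1 RNAi and 13.8, 13.6 and 12.4 CPM on control RNAi in N2. It fell by 2.00 ± 0.13 (adjusted p = 2.25e-13) with no overlap between groups. cyp-14A2 averaged 1.37 ± 0.156 CPM on cco-1 RNAi and 5.18 ± 0.938 CPM on control RNAi, and cyp-37A1, a CYP4 clan gene, averaged 4.87 ± 0.320 CPM on cco-1 RNAi and 13.8 ± 1.09 CPM on control RNAi (SD, n = 3 each). They fell by 1.38 ± 0.13 and 1.33 ± 0.09. cyp-13A2, cyp-13B2, cyp-43A1 and cyp-34A9 fell by 0.61 to 0.80.

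**Figure D3:**
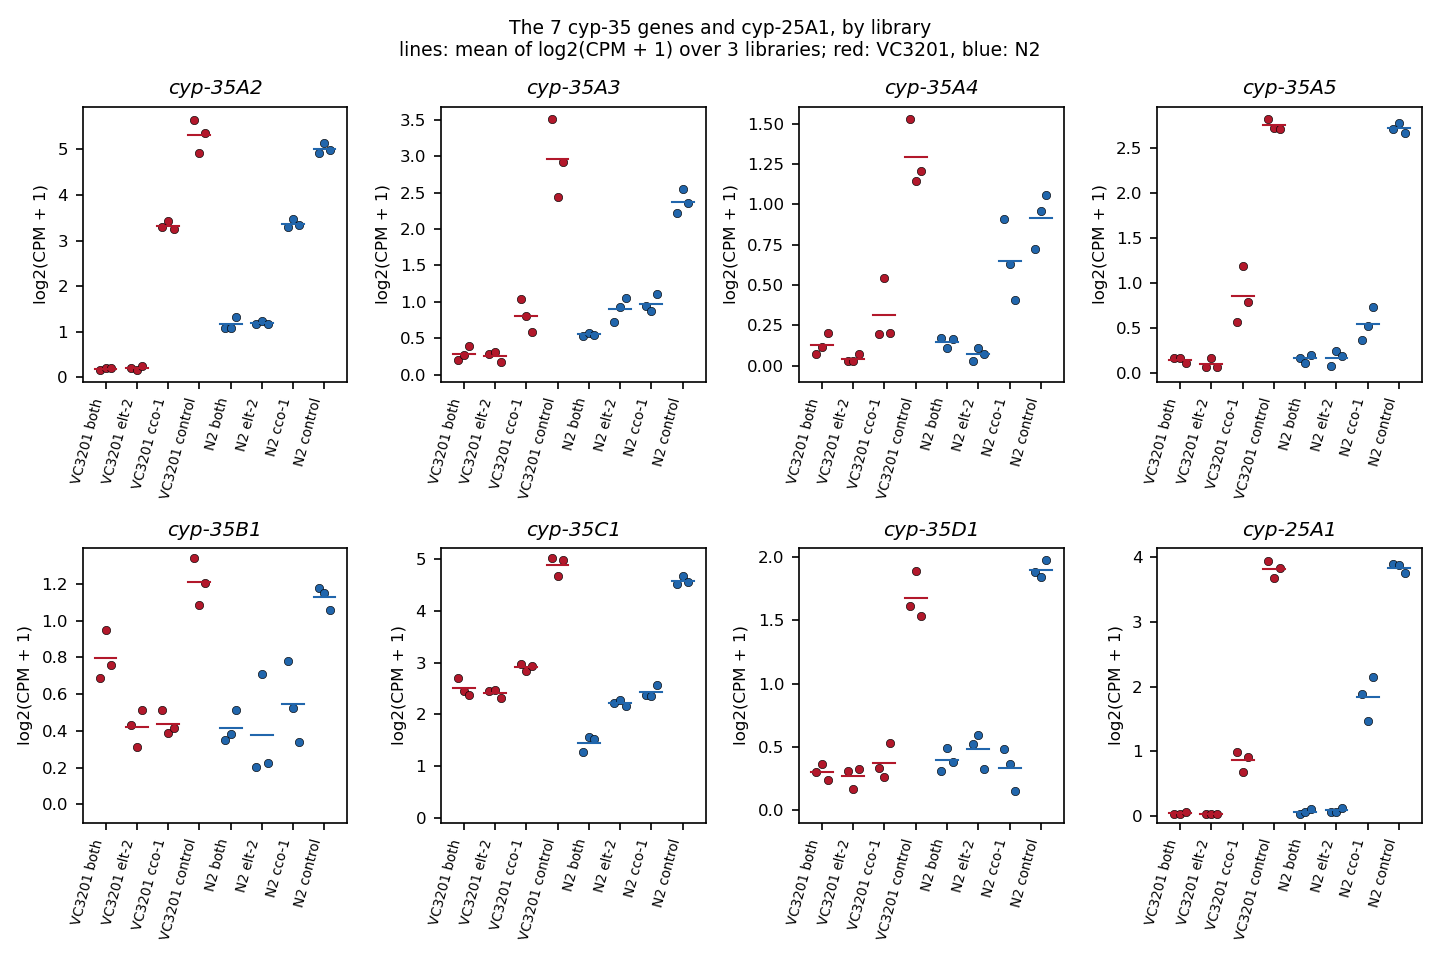
Level of the 7 cyp-35 genes and cyp-25A1 in each library, as log2(CPM + 1), by group (VC3201 red, N2 blue); lines are means of 3 libraries. In both strains the control group has the highest mean of each gene, for cyp-35C1 29.02 CPM on average in VC3201 and 22.97 CPM in N2.

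The same RNAi in VC3201 asked which of these changes occurred in the atfs-1 mutant strain. With cco-1 RNAi in VC3201, 9 members rose and 26 fell (63.6% changed), against 64% of all genes tested (26.9% higher and 37.1% lower), so the members' share was close to that of all genes. In the same comparison 7 of 8 oocyte markers fell. Those that rose were 7 of 10 intestinal, 6 of 6 body wall muscle, 6 of 9 hypodermal, 4 of 5 pharynx and 5 of 7 sperm markers. Another 2 intestinal and 2 hypodermal markers fell. The oocyte markers summed to 5216 to 5457 CPM on cco-1 RNAi and 6947 to 7258 CPM on control RNAi in VC3201, and the intestinal ones to 2006 to 2095 CPM on cco-1 RNAi and 988 to 1215 CPM on control RNAi. Their part in the changes of cyp genes was not tested. With the authors' quantile normalization partly undone, 15 rose and 20 fell. Between the strains, whose libraries are separate, 4 members rose in both, 15 fell in both, 4 rose in N2 and fell in VC3201, and 2 fell in N2 and rose in VC3201. With the normalization partly undone, 4 rose in both, 14 fell in both, 0 rose in N2 and fell in VC3201, and 3 fell in N2 and rose in VC3201 (cyp-14A5, cyp-33A1 and cyp-36A1). The same overlap was not counted over all genes, so these counts describe the members and nothing more is read from them.

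Among the members with the largest increases in N2, cyp-14A4, cyp-13A12, cyp-14A1, cyp-13A8 and cyp-13A7 were not called higher in VC3201. cyp-14A4 had 0.0220, 0.145 and 0.0863 CPM in VC3201 worms on cco-1 RNAi and 0.132, 0.130 and 0.0220 CPM on control RNAi, or 0 to 2 reads in each of these 6 libraries. Its change in VC3201 was -0.01 ± 0.12 (95% confidence interval from -0.26 to 0.24), and the strain difference, the change in VC3201 minus that in N2, was -2.85 ± 0.17 (adjusted p = 2.11e-13). cyp-13A12 had 0 reads in all 3 VC3201 libraries on cco-1 RNAi. With 3 reads per library taken as the floor, it was at least 22.5-fold lower there than in N2 on cco-1 RNAi. That N2 group alone admitted the gene, so this fold is a description only.

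cyp-14A1 had 0.371, 0.352 and 0.666 CPM on cco-1 RNAi and 1.04, 0.725 and 0.676 CPM on control RNAi in VC3201, all below the N2 control libraries. Its change of -0.31 ± 0.12 in VC3201 differed from the rise in N2 by -1.84 ± 0.17 (adjusted p = 9.12e-10). The change within VC3201 was not called with the normalization partly undone (-0.13, adjusted p = 0.329). cyp-13A8 and cyp-13A7 were at 0 to 3 reads in the VC3201 cco-1 and control libraries, and their changes of 0.03 ± 0.12 and -0.13 ± 0.11 were not called. The strain differences were -1.40 ± 0.17 and -1.03 ± 0.16, given as descriptions because N2 worms on cco-1 RNAi alone admitted both genes.

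cyp-33C8 rose in VC3201 too, to 9.84, 11.8 and 10.8 CPM on cco-1 RNAi, against 4.66, 3.96 and 5.27 CPM on control RNAi. The groups did not overlap, but the rise of 1.07 ± 0.08 was smaller than that in N2 by 1.84 on the log2 scale (strain difference -1.84 ± 0.11, adjusted p = 2.38e-13). Its cco-1 libraries in VC3201 lay below the control libraries in N2. cyp-13A5 rose by 0.38 ± 0.09 in VC3201, and the strain difference of -0.44 ± 0.12 was called (adjusted p = 0.00618) but not with the normalization partly undone (-0.27, adjusted p = 0.0831).

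Some genes rose in VC3201 and not in N2. cyp-14A5 had 70.9, 67.1 and 64.7 CPM in VC3201 worms on cco-1 RNAi and 9.21, 9.96 and 10.2 CPM on control RNAi, a rise of 2.67 ± 0.08 (adjusted p = 3.53e-21). In N2 the same gene had 10.1, 8.54 and 8.61 CPM on cco-1 RNAi and 14.4, 15.6 and 13.1 CPM on control RNAi, a fall of 0.61 on the log2 scale. The 3 VC3201 cco-1 libraries were the highest of the 24 for this gene, and the strain difference was 3.28 ± 0.11 (adjusted p = 9.51e-19). cyp-13B1 had 14.9, 14.6 and 12.7 CPM on cco-1 RNAi and 1.80, 1.30 and 2.33 CPM on control RNAi in VC3201, a rise of 2.43 ± 0.18. In N2 its change was 0.10 ± 0.18 and was not called, with a strain difference of 2.33 ± 0.26 (adjusted p = 2.86e-08). cyp-32A1 rose by 0.68 ± 0.11 in VC3201, against a change of -0.01 ± 0.11 in N2, with a strain difference of 0.69 ± 0.16 (adjusted p = 0.000921).

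The cyp-35 genes fell in both strains. All 7 were called lower with cco-1 RNAi in VC3201, against 37.1% of all genes tested, though the control group alone admitted cyp-35A4. Their median change was -1.90, against -0.06 over all genes tested. cyp-35A5 averaged 0.829 ± 0.410 CPM on cco-1 RNAi and 5.71 ± 0.275 CPM on control RNAi in VC3201 (SD, n = 3 each). Its change of -1.90 ± 0.12 differed from that in N2 by 0.27 ± 0.17, which was not called (adjusted p = 0.214). Of the 7, cyp-35A3 fell by more in VC3201 (strain difference -0.74 ± 0.24, adjusted p = 0.0134). Its VC3201 control libraries were uneven, with 149, 50 and 64 reads. The same fall from its N2 control level would end at 0.23 on the log2 scale, near the floor. For cyp-35A4 the strains differed by -0.71 ± 0.18, but the VC3201 control group alone admitted this gene, and the same fall from its N2 control level would end at -0.06, below the floor of the scale, so nothing is read from it.

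cyp-25A1 had 0.997, 0.608 and 0.885 CPM on cco-1 RNAi and 14.3, 11.7 and 13.1 CPM on control RNAi in VC3201. The fall of 2.94 ± 0.13 was larger than in N2 (strain difference -0.95 ± 0.18, adjusted p = 0.000114). Its neighbour cyp-25A2 had 2.72, 3.71 and 3.91 CPM on cco-1 RNAi and 16.1, 13.6 and 15.2 CPM on control RNAi in VC3201, a change of -1.85 ± 0.10, against -0.35 ± 0.10 in N2. Across the 55 members the strain difference was called higher for 7 and lower for 23 (54.5%), against 40% of all genes (16.8% higher and 23.2% lower). These became 14 and 21 with the quantile normalization partly undone.

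**Figure D4:**
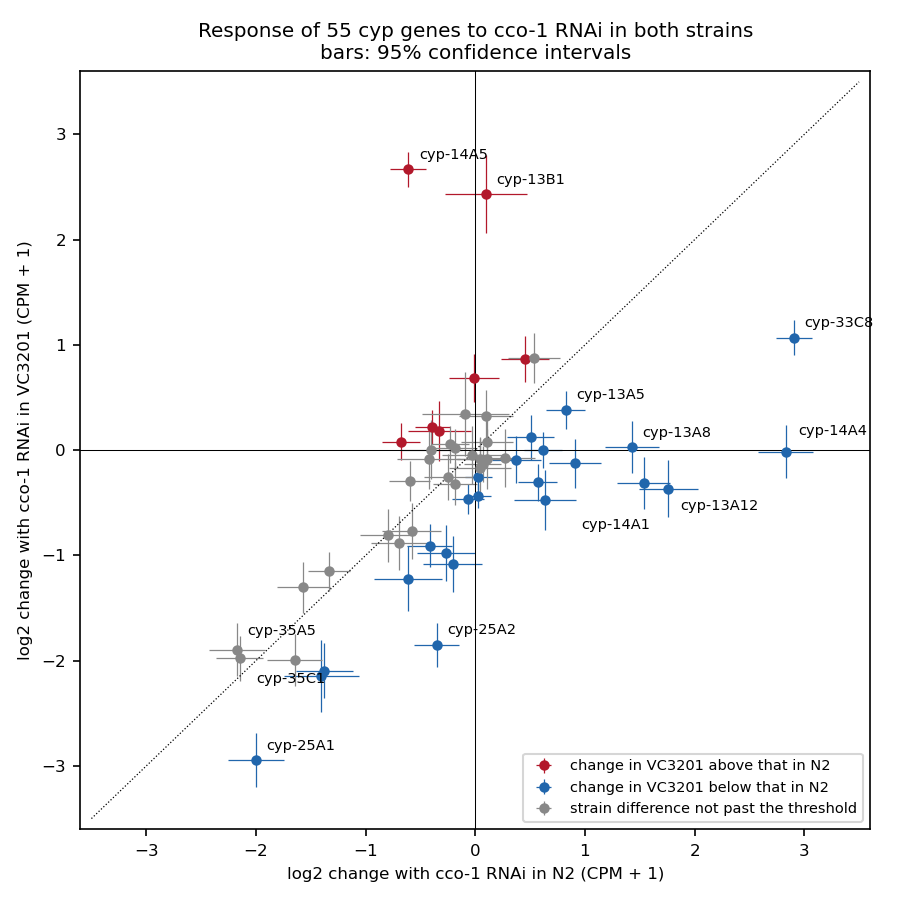
Change of each of the 55 cyp genes with cco-1 RNAi in VC3201 (vertical) against N2 (horizontal), as differences of log2(CPM + 1) with 95% confidence intervals; the dotted line marks equal change. Red and blue mark genes whose strain difference was called, and cyp-14A5 (2.67 in VC3201, -0.61 in N2) and cyp-14A4 (-0.01 in VC3201, 2.83 in N2) lie farthest from the line.

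The next question was how the cyp genes depended on elt-2. With elt-2 RNAi in N2, 9 members rose and 23 fell (58.2% changed), against 48% of all genes tested (26.2% higher and 21.8% lower). All 7 cyp-35 genes, cyp-25A1, cyp-14A2 and cyp-32B1 fell, while cyp-13A5, cyp-36A1 and several cyp-33 genes rose. The median change was -0.22 over members and 0.02 over all genes.

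cyp-35A2 had 1.25, 1.37 and 1.26 CPM in N2 worms on elt-2 RNAi and 29.4, 34.4 and 30.6 CPM on control RNAi. It fell by 3.82 ± 0.12 (adjusted p = 4.06e-21), the largest fall among the members in this comparison. cyp-25A1 had 0.0532, 0.0496 and 0.0918 CPM on elt-2 RNAi, or 1, 1 and 2 reads, against 13.8, 13.6 and 12.4 CPM on control RNAi. Its change was -3.74 ± 0.13 (adjusted p = 1.35e-20), and no library of one group came near those of the other.

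cyp-35A5 averaged 0.124 ± 0.0659 CPM on elt-2 RNAi and 5.57 ± 0.254 CPM on control RNAi in N2 (SD, n = 3 each), a change of -2.55 ± 0.12. cyp-35C1 had 3.64, 3.82 and 3.48 CPM on elt-2 RNAi, against 21.9, 24.5 and 22.5 CPM, a change of -2.37 ± 0.10. The other cyp-35 genes changed by -1.48 (cyp-35A3), -1.42 (cyp-35D1), -0.84 (cyp-35A4) and -0.75 (cyp-35B1). cyp-32B1, a CYP4 clan gene, had 0.437, 0.184 and 0.437 CPM on elt-2 RNAi, against 2.83, 2.92 and 3.44 CPM on control RNAi, and fell by 1.59 ± 0.12. cyp-33C9 and cyp-14A1 each fell by 1.18 on the log2 scale, cyp-37A1 by 1.15 and cyp-37B1 by 1.10.

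In whole worms, fewer cells of a type and less RNA per cell cannot be told apart. The 10 intestinal marker genes summed to 798 to 826 CPM in N2 worms on elt-2 RNAi and 1078 to 1129 CPM on control RNAi, where 8 of the 10 fell and the other 2 rose. In VC3201 they summed to 1476 to 1565 CPM on elt-2 RNAi and 988 to 1215 CPM on control RNAi, where 6 fell and 4 rose. Among the 8 markers that fell in N2, ges-1 averaged 8.13 CPM with elt-2 RNAi against 22.4 CPM on control RNAi, and spp-1 averaged 0.0900 CPM against 9.40 CPM. The part of intestinal RNA in the falls of cyp genes was not tested.

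The genes that rose with elt-2 RNAi were led by cyp-13A5 (CYP3 clan, chromosome II), with 27.6, 34.96 and 31.7 CPM on elt-2 RNAi and 3.13, 3.72 and 4.01 CPM on control RNAi in N2. The groups did not overlap, and the change was 2.81 ± 0.09 (adjusted p = 2.87e-21). cyp-33C8 had 73.8, 94.6 and 76.2 CPM on elt-2 RNAi, a rise of 2.54 ± 0.08 over its control level. cyp-33C4 had 19.5, 22.7 and 20.9 CPM on elt-2 RNAi and 3.06, 2.74 and 3.02 CPM on control RNAi, a rise of 2.48 ± 0.09.

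cyp-33D1 and cyp-33C7 rose by 1.33 ± 0.11 and 1.26 ± 0.09. cyp-36A1, which acts with the nuclear receptor gene nhr-46 downstream of the oxygen sensor EGL-9, had 34.1, 43.04 and 39.2 CPM on elt-2 RNAi and 16.1, 16.9 and 13.8 CPM on control RNAi. Every elt-2 library lay above every control library, with a change of 1.26 ± 0.08 (adjusted p = 3.49e-14). cyp-14A4 rose by 0.80 ± 0.12, and cyp-25A3 and cyp-33A1 by 0.37 and 0.23, of which the call of cyp-33A1 was lost when single libraries were left out.

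**Figure D5:**
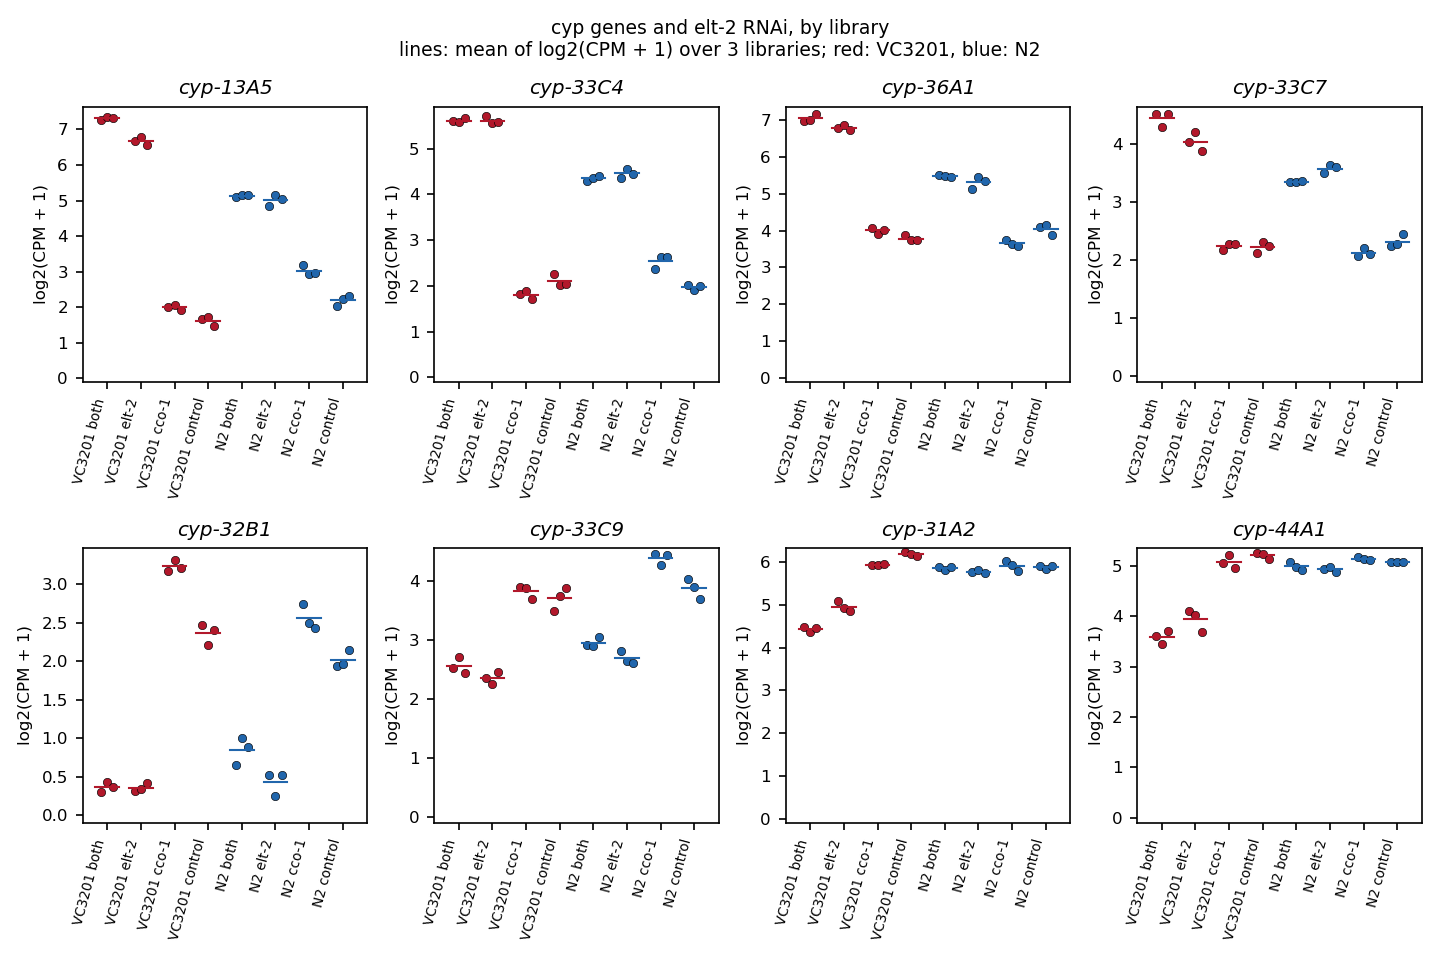
Level of 8 cyp genes in each library, as log2(CPM + 1), by group (VC3201 red, N2 blue); lines are means of 3 libraries. cyp-13A5, cyp-33C4, cyp-36A1 and cyp-33C7 are higher in all libraries with elt-2 RNAi than in those without it in the same strain, cyp-32B1 and cyp-33C9 are lower, and cyp-31A2 and cyp-44A1 are lower in VC3201, at 30.1 and 14.5 CPM on elt-2 RNAi.

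Worms on both RNAi were next set against worms on cco-1 RNAi alone, to see which levels on cco-1 RNAi changed when elt-2 RNAi was added. The cco-1 transcript itself was lower with both RNAi in N2, at 76.0, 76.8 and 66.0 CPM, against 124, 134 and 124 CPM on cco-1 RNAi alone. On elt-2 RNAi alone it had 228, 214 and 262 CPM, against 267, 276 and 333 CPM on control RNAi. The part of these cco-1 levels in the differences of cyp genes was not tested. Against cco-1 RNAi alone, 11 members were higher and 21 lower with both RNAi (58.2%), against 34.1% of all genes (17.6% higher and 16.5% lower). The genes that cco-1 RNAi had raised went different ways. This comparison shares its cco-1 libraries with the comparison of cco-1 RNAi and control, so each gene's values are set side by side without a count of the overlap.

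cyp-13A12 had 0.578, 0.565 and 0.303 CPM with both RNAi and 4.62, 4.28 and 4.91 CPM on cco-1 RNAi in N2. The difference was -1.92 ± 0.13. The values with both RNAi overlapped those of the control libraries, at 0.654, 0.419 and 0.929 CPM. cyp-14A1 had 1.91, 1.47 and 2.47 CPM with both RNAi, against 10.1, 8.97 and 9.83 CPM, and fell by 1.87 ± 0.12. cyp-13A8 averaged 0.435 ± 0.160 CPM with both RNAi and 2.06 ± 0.587 CPM on cco-1 RNAi, and cyp-13A7 averaged 0.179 ± 0.0747 CPM with both RNAi and 1.33 ± 0.257 CPM on cco-1 RNAi (SD, n = 3 each). The differences were -1.08 ± 0.12 and -0.98 ± 0.11, and all 3 of these cyp-13A genes were admitted by the cco-1 group.

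cyp-14A4 stayed high, with 9.95, 10.4 and 9.71 CPM with both RNAi, against 10.3, 8.50 and 9.07 CPM on cco-1 RNAi alone. The groups overlapped, and the difference of 0.10 ± 0.12 (95% confidence interval from -0.15 to 0.35) was not called. cyp-33C8 went further up, to 249, 243 and 241 CPM with both RNAi, against 108, 103 and 103 CPM on cco-1 RNAi. It was higher by 1.21 ± 0.08 (adjusted p = 1.99e-13). cyp-13A5, cyp-36A1 and cyp-33C4 were higher by 2.11, 1.83 and 1.81 with both RNAi. cyp-34A9 averaged 4.57 ± 0.271 CPM with both RNAi and 1.59 ± 0.626 CPM on cco-1 RNAi (SD, n = 3 each), a rise of 1.14 ± 0.15.

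The interaction of the 2 RNAi treatments in N2 is the change with elt-2 RNAi on top of cco-1 RNAi minus the change with elt-2 RNAi alone, on the log2(CPM + 1) scale. It was called for 24 members, 15 higher and 9 lower (43.6%), against 13% of all genes (7.09% higher and 5.95% lower). These shares include genes whose interaction was set by the scale, since log2(CPM + 1) cannot go below 0. The level of cco-1 also differed between worms on both RNAi and on cco-1 RNAi alone, and its part in the interactions was not tested. For 7 of the 15 with a higher interaction (cyp-14A2, cyp-25A1, cyp-35A2, cyp-35A3, cyp-35A5, cyp-35B1 and cyp-35D1), the control level plus the separate changes lay below 0, so nothing is read from their interactions. cyp-35A5 had 0.125, 0.0808 and 0.151 CPM with both RNAi, near its level of 0.0532 to 0.184 CPM on elt-2 RNAi alone, and these levels stood for 1 to 5 reads per library. Its control level plus the separate changes came to -2.01 on the log2 scale. For cyp-35C1, with an interaction of 1.38, that sum was 0.07, just above the floor. For the remaining 7 higher ones it ran from 0.80 to 4.92. That sum cannot show a floor for the 9 lower ones, where the floor limits the fall with elt-2 RNAi alone. The N2 control levels of cyp-13A12, cyp-13A8 and cyp-13A7 were 0.73, 0.16 and 0.31 on the log2 scale. These were smaller than their falls when elt-2 RNAi was added to cco-1 RNAi, so nothing is read from their interactions. For cyp-14A1 the control level of 1.88 was close to that fall.

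Among the genes higher on cco-1 RNAi, the interaction of cyp-33C8 was lower, at -1.33 ± 0.11. Those of cyp-13A12 and cyp-13A8 were -1.40 ± 0.19 and -1.02 ± 0.17, given with no test. For cyp-32B1 the effects of the separate treatments ran in opposite directions, 0.54 with cco-1 RNAi and -1.59 with elt-2 RNAi, and the interaction of -0.12 ± 0.16 was not called (adjusted p = 0.725).

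The strains were then compared on the same diet. On control RNAi, 14 members were higher and 13 lower in VC3201 than in N2 (49.1%), against 49.3% of all genes (26.7% higher and 22.6% lower), so the members' share was that of all genes. Of the tissue markers, 7 of 7 sperm and 4 of 8 oocyte markers were higher in VC3201, and 6 of 9 hypodermal (median -1.10), 4 of 6 body wall muscle and 2 of 5 pharynx markers were lower, and their part in the differences of cyp genes was not tested. With the quantile normalization partly undone these counts were 11 and 17. Only cyp-33C8 and cyp-14A1 differed by a log2 change of 1 or more. cyp-33C8 had 4.66, 3.96 and 5.27 CPM in VC3201 and 12.2, 12.5 and 14.7 CPM in N2, a difference of -1.33 ± 0.08 (adjusted p = 8.08e-14). cyp-14A1 averaged 0.812 ± 0.195 CPM in VC3201 and 2.68 ± 0.280 CPM in N2 (SD, n = 3 each), a difference of -1.02 ± 0.12. cyp-29A4, a CYP4 clan gene, was higher, with 4.26, 5.43 and 5.098 CPM in VC3201 and 1.79, 2.03 and 2.16 CPM in N2, a difference of 0.98 ± 0.13. No library of VC3201 overlapped those of N2 for these genes.

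On cco-1 RNAi, 10 members were higher and 20 lower in VC3201 than in N2 (54.5%), against 55.8% of all genes (26.6% higher and 29.2% lower). Here 5 of 7 sperm, 4 of 5 pharynx and 6 of 10 intestinal markers were higher in VC3201 and 6 of 8 oocyte markers lower. Going the other way, 2 intestinal markers were lower and 1 oocyte marker was higher. The largest differences were those of cyp-14A4 (-3.24 ± 0.12), cyp-33C8 (-3.17 ± 0.08), cyp-14A1 (-2.87 ± 0.12) and, with no test, cyp-13A12 (-2.45 ± 0.13) among the lower genes. cyp-13B1 (2.85 ± 0.18) and cyp-14A5 (2.77 ± 0.08) led the higher ones. cyp-25A2 averaged 3.45 ± 0.635 CPM in VC3201 and 9.12 ± 0.413 CPM in N2 on cco-1 RNAi (SD, n = 3 each), a difference of -1.20 ± 0.10.

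With elt-2 RNAi, 15 members rose and 31 fell in VC3201 (83.6%), against 85.8% of all genes (36.4% higher and 49.4% lower), so the members' share was close to that of all genes. With the quantile normalization partly undone, 20 rose and 24 fell, the median of all genes moved by 0.17, and cyp-31A1, cyp-25A3, cyp-25A4, cyp-33E1 and cyp-33E2 changed sign. Between the strains, 7 members rose with elt-2 RNAi in both and 19 fell in both, which became 10 and 19 with the normalization partly undone. This overlap was not counted over all genes either, so nothing more is read from it. elt-2 itself had 6.52, 8.84 and 15.98 CPM on elt-2 RNAi in VC3201, so 1 library lay close to the control level. The average was 10.4 ± 4.93 CPM in these libraries and 16.9 ± 0.673 CPM in the VC3201 controls (SD, n = 3 each).

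cyp-33C8 had 338, 341 and 329.7 CPM in VC3201 worms on elt-2 RNAi and 4.66, 3.96 and 5.27 CPM on control RNAi. The rise of 5.91 ± 0.08 (adjusted p = 1.14e-30) exceeded that in N2 by 3.37 ± 0.11 (adjusted p = 6.98e-20). With both RNAi it reached 391, 406 and 396 CPM in VC3201, the highest values of any member in any library as measured by CPM, which do not account for gene length. cyp-13A5 had 101, 109 and 93.9 CPM on elt-2 RNAi and 2.16, 2.28 and 1.78 CPM on control RNAi in VC3201, a rise of 5.06 ± 0.09, with a strain difference of 2.25 ± 0.12 (adjusted p = 4.06e-15).

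cyp-36A1 had 108, 114 and 105 CPM on elt-2 RNAi and 13.7, 12.3 and 12.4 CPM on control RNAi in VC3201. It rose by 3.00 ± 0.08, more than in N2 by 1.74 ± 0.11 (adjusted p = 7.32e-14). cyp-43A1, a CYP3 clan gene, moved in opposite directions in the strains. It had 35.6, 32.2 and 34.6 CPM on elt-2 RNAi and 12.4, 15.2 and 12.7 CPM on control RNAi in VC3201, a rise of 1.29 ± 0.09, whereas in N2 it averaged 9.88 ± 0.830 CPM on elt-2 RNAi and 15.8 ± 0.654 CPM on control RNAi (SD, n = 3 each), a change of -0.63 ± 0.09. The strain difference was 1.92 ± 0.12 (adjusted p = 5.97e-14). cyp-33C4 and cyp-33C7 rose by 3.50 ± 0.09 and 1.82 ± 0.09.

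The falls in VC3201 were led by cyp-35A2, with 0.151, 0.125 and 0.189 CPM on elt-2 RNAi, or 3 to 5 reads, and 49.4, 29.4 and 40.3 CPM on control RNAi. It changed by -5.11 ± 0.12 (adjusted p = 1.00e-24). The same fall from its N2 control level would end at -0.09, below the floor of the scale, so nothing is read from its strain difference. cyp-25A1 had 0 reads in all 3 VC3201 libraries on elt-2 RNAi and was at least 106-fold lower than on control RNAi, at a floor of 3 reads per library. cyp-37A1 had 1.20, 1.13 and 1.31 CPM on elt-2 RNAi and 15.2, 15.1 and 13.4 CPM on control RNAi in VC3201, a change of -2.81 ± 0.09, against -1.15 ± 0.09 in N2. cyp-25A2 changed by -2.40 ± 0.10 in VC3201 and -0.49 ± 0.10 in N2, with a strain difference of -1.91 ± 0.14 (adjusted p = 2.58e-12). All 7 cyp-35 genes were called lower, against 49.4% of all genes tested, cyp-35A4 having been admitted by the control group. Their median change was -2.49, against -0.18 over all genes tested.

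The cyp-31A genes, of the CYP4 clan, are known for lipids of the eggshell, which cyp-31A2 and cyp-31A3 make with the reductase emb-8. Reads of these close copies may be shared between them, so the value of each is uncertain. cyp-31A2 had 33.05, 29.5 and 27.8 CPM in VC3201 worms on elt-2 RNAi and 74.6, 72.5 and 70.1 CPM on control RNAi, and fell by 1.24 ± 0.06 (adjusted p = 2.16e-17). cyp-31A3 and cyp-31A5 fell by 0.90 ± 0.06 and 1.32 ± 0.07. In N2 none of the cyp-31A genes was called with elt-2 RNAi, and cyp-31A2 had 53.4, 55.6 and 53.2 CPM there, against 59.2, 56.5 and 59.7 CPM on control RNAi. With the normalization partly undone, cyp-31A1 was called higher (0.24, adjusted p = 0.0234) and cyp-31A2 lower (-0.15, adjusted p = 0.0389) in N2.

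cyp-44A1, the mitochondrial P450, had 16.2, 15.4 and 11.9 CPM on elt-2 RNAi and 37.5, 36.6 and 34.3 CPM on control RNAi in VC3201, a change of -1.27 ± 0.08 (adjusted p = 2.92e-14). In N2 its change of -0.14 ± 0.08 was not called, though it was with the normalization partly undone (-0.18, adjusted p = 0.0427), and the strain difference was -1.13 ± 0.12. The 8 oocyte markers, all of which fell, summed to 3660 to 3926 CPM in VC3201 worms on elt-2 RNAi and 6947 to 7258 CPM on control RNAi, and the 7 sperm markers, all of which rose, summed to 943 to 974 CPM on elt-2 RNAi and 173 to 216 CPM on control RNAi. In N2 the oocyte markers summed to 7862 to 8351 CPM on elt-2 RNAi and 6613 to 7433 CPM on control RNAi, and the sperm markers, 6 of which rose, to 158 to 176.01 CPM on elt-2 RNAi and 88.1 to 111 CPM on control RNAi. The part of germline RNA in the falls of cyp-31A genes and cyp-44A1 was not tested.

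With both RNAi against cco-1 RNAi alone in VC3201, 17 members were higher and 24 lower (74.5%), against 81.1% of all genes (36.5% higher and 44.6% lower). These became 22 and 19 with the quantile normalization partly undone, which moved the median of all genes by 0.11. The cco-1 transcript had 71.2, 67.0 and 64.0 CPM with both RNAi and 112, 127 and 135 CPM on cco-1 RNAi in VC3201. The part of this difference in the changes of cyp genes was not tested. cyp-14A5 had 15.02, 15.1 and 14.6 CPM with both RNAi and 70.9, 67.1 and 64.7 CPM on cco-1 RNAi, and cyp-13B1 averaged 2.18 ± 0.783 CPM with both RNAi and 14.1 ± 1.22 CPM on cco-1 RNAi (SD, n = 3 each). These genes, which rose with cco-1 RNAi in VC3201, thus fell by 2.11 ± 0.08 and 2.27 ± 0.18 when elt-2 RNAi was added. cyp-32B1 fell by 2.87 ± 0.12, and cyp-13A5 and cyp-33C8 rose by 5.31 ± 0.09 and 5.08 ± 0.08.

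Across all 55 members, the change with elt-2 RNAi differed between the strains for 35 (63.6%, 16 higher and 19 lower in VC3201), against 72.8% of all genes (30.7% higher and 42.1% lower). The split was 24 and 15 with the quantile normalization partly undone.

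Many members lie next to each other, and neighbours did not always move alike. On chromosome X, cyp-14A1 (13265041 to 13267355) and cyp-14A2 (13267562 to 13269686) lie on the same strand 206 bases apart (WBcel235), and with cco-1 RNAi in N2 they moved in opposite directions, by 1.53 and -1.38. cyp-14A4 (13282043 to 13284197) rose with cyp-14A1, while cyp-14A3 between them was below the 1 CPM limit. On chromosome II, cyp-13A7 (9803620 to 9805513) and cyp-13A8 (9805600 to 9807569) run towards each other with 86 bases between them and both were higher in the group that admitted them. The library's strandedness is not given in the sources used here, so reads at their ends cannot be assigned with certainty.

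The same cluster holds cyp-13A5 (9798277 to 9800362), which rose with elt-2 RNAi, and cyp-13A2 (9783384 to 9787629), which fell by 1.40 in N2. On chromosome V, cyp-33C4 (2236140 to 2237999), cyp-33C3, cyp-33C5 and cyp-33C7 (2250540 to 2252591) form a cluster. cyp-33C6, between cyp-33C5 and cyp-33C7, was below the 1 CPM limit. All 4 members there rose with elt-2 RNAi in VC3201, by 3.50, 0.50, 1.11 and 1.82, where 36.4% of all genes tested were called higher. In N2, cyp-33C4 and cyp-33C7 were called and cyp-33C3 and cyp-33C5 were not, with changes of -0.03 and 0.25, of which that of cyp-33C5 was called with the normalization partly undone (0.35, adjusted p = 0.0112). On chromosome III, cyp-25A1 and cyp-25A2 lie 634 bases apart on the same strand, and both fell with either RNAi in either strain, though in N2 cyp-25A2 fell by only 0.35 with cco-1 RNAi and by 0.49 with elt-2 RNAi.

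Genes that serve P450 enzymes were examined as lists. Of 3 electron donors, emb-8 rose with cco-1 RNAi in N2, to 216 ± 2.53 CPM against 152 ± 2.09 CPM on control RNAi (SD, n = 3 each), a change of 0.51 ± 0.05 (adjusted p = 3.58e-09). In VC3201 its change was 0.10 ± 0.05 and was not called, with a strain difference of -0.41 ± 0.07 (adjusted p = 4.55e-05). The cytochrome b5 gene cytb-5.1 fell with elt-2 RNAi in N2 to 21.1 ± 1.26 CPM, against 40.4 ± 3.87 CPM on control RNAi (SD, n = 3 each).

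P450 enzymes contain heme, and of 7 heme transport genes 6 rose with cco-1 RNAi in N2 and none fell, against 33.8% of all genes changed (17.5% higher). Their median change was 1.53, against 0.01 over all genes tested. The rises were 2.97 ± 0.15 for hrg-2, 2.38 ± 0.05 for hrg-7 (listed as asp-10), 2.33 ± 0.12 for hrg-3 and 1.53 ± 0.09 for hrg-1. In VC3201, 6 of the 7 rose and 1 fell, against 64% of all genes changed, and none was called lower with the normalization partly undone. hrg-2 rose by less than in N2, with a strain difference of -2.19 ± 0.21 (adjusted p = 1.49e-09).

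Of 20 regulators of cyp genes or xenobiotic responses, 2 rose and 1 fell with cco-1 RNAi in N2, and 9 rose and 4 fell with elt-2 RNAi, against 33.8% and 48% of all genes changed. The nuclear receptor gene nhr-8, which protects worms against toxins, averaged 29.2 CPM on cco-1 RNAi and 15.4 CPM on control RNAi, a rise of 0.88 ± 0.09, and fell by 1.18 ± 0.09 with elt-2 RNAi in N2. nhr-176, the receptor through which thiabendazole induces cyp-35D1, fell by 1.38 ± 0.14 with elt-2 RNAi in N2. pqm-1, a zinc finger factor of stress responses, rose by 0.50 ± 0.07 with cco-1 RNAi and 1.59 ± 0.07 with elt-2 RNAi in N2.

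Of the 14 P-glycoprotein transporter genes, which export drugs, 4 rose and 3 fell with cco-1 RNAi in N2, and 10 rose and 4 fell in VC3201, against 33.8% of all genes changed in N2 and 64% in VC3201. pgp-1 rose by 2.00 ± 0.08 in VC3201 and by 0.66 ± 0.08 in N2. Of 5 flavin monooxygenase genes, which also oxidize foreign compounds, 2 rose and 1 fell with elt-2 RNAi in N2, a share near the 48% of all genes changed there, and fmo-2 rose by 2.71 ± 0.13. Both epoxide hydrolase genes, which act on P450 products, fell with elt-2 RNAi in N2, ceeh-2 by 1.59 ± 0.13 and ceeh-1 by 0.35 ± 0.13, though only 1 of the pair was called with the quantile normalization partly undone. Of 4 genes of dafachronic acid synthesis, the oxygenase gene daf-36 fell by 2.75 ± 0.12 and dhs-16 rose by 1.09 ± 0.14 with elt-2 RNAi in N2, and the hormone P450 gene daf-9 changed by -0.15 ± 0.13, which was not called (adjusted p = 0.367).

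The authors' deposited table lists 14 of the members as raised by cco-1 RNAi. The authors' deposited table marks 9 of these members among 517 ELT-2-dependent genes and 12 among 719 ATFS-1-dependent genes. In the authors' deposited table, 7 members stand among the 296 genes in both lists, namely cyp-13A7, cyp-13A8, cyp-13A12, cyp-14A1, cyp-31A1, cyp-33C9 and cyp-33E2. Of these 7, cyp-13A7, cyp-13A8 and cyp-13A12 passed the 1 CPM limit only through N2 worms on cco-1 RNAi. cyp-32B1 and cyp-34A8 stand only in the ELT-2-dependent list and cyp-13A5, cyp-14A4, cyp-33C4, cyp-33C8 and cyp-33D1 only in the ATFS-1-dependent one in the authors' deposited table. These lists were made from the same libraries and are no independent evidence.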

How the data were processed

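RNA-seq of whole worms was analysed from the deposited table of 16927 genes in 24 libraries. The submitters' processing notes name the aligner STAR 2.73a, the package edgeR 3.24.3 and the build WBcel235, also called ce11, and do not name the read counter or annotation release. The deposited values are CPM that the authors had quantile-normalized, as seen in the sorted values, which were equal across libraries within 1% at 58.9% of ranks. They are not counts, so no count model was used.

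The 14561 genes with a group mean of at least 1 CPM were fitted as log2(CPM + 1) in 1 limma 3.58.1 model of group means (R 4.3.3, empirical Bayes with trend, 16 residual degrees of freedom, 2-sided, Benjamini-Hochberg over all genes in each comparison), which was tested on simulated data. Reads were ranked back from ties of low CPM for 60.8% to 70.5% of genes per library; floors in reads cover counting error only, and the 95% confidence intervals of changes rest on the spread between libraries. The members and lists were chosen with earlier results of these data known. Genes were named by size of change, up to 12 each way per comparison (8 in interactions), plus the targeted genes and up to 4 per list by smallest p; genes described as neighbours or as not called were added after their values were seen. Gene positions and biotypes are those of a gene annotation of WBcel235. Alternatives were pseudocounts of 0.5 and 5 CPM, no filter, only the groups compared, a replicate block, the quantile normalization partly undone (ranked reads, 1 factor per library above them, median-ratio scaling) and each library left out. Of the list genes, hsd-1, nhr-72 and hrg-5 were not matched, and nhr-239 and pgp-15 were below the limit.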

Additional observations from a re-analysis of the deposited data

Results flagged for a closer look

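These results stood out because the same RNAi changed a cyp gene differently in VC3201 and N2, by the test of the difference itself (change in VC3201 minus change in N2, log2 scale, limma with Benjamini-Hochberg adjustment). They cover the genes named for these comparisons, 15 for cco-1 RNAi and 16 for elt-2 RNAi. All of them share the 6 control libraries within each RNAi, so the genes are not independent of each other.

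With cco-1 RNAi the difference was positive for cyp-14A5 (3.28), cyp-13B1 (2.33), cyp-43A1 (0.76), cyp-32A1 (0.69), cyp-36A1 (0.61), cyp-25A5 (0.51) and cyp-34A8 (0.41). The pseudogene cyp-25A5 lost its call under 9 of the settings tried and cyp-34A8 under 6. The difference was negative for cyp-14A4 (-2.85), cyp-13A12 (-2.12), cyp-14A1 (-1.84), cyp-33C8 (-1.84), cyp-25A2 (-1.50), cyp-13A8 (-1.40), cyp-33E2 (-1.11) and cyp-13A7 (-1.03). cyp-13A12, cyp-13A8 and cyp-13A7 passed the 1 CPM limit only through N2 worms on cco-1 RNAi, so their differences are descriptions.

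cyp-33E2, which makes eicosanoids, changed in opposite directions, with 3.03, 2.90 and 2.49 CPM on cco-1 RNAi and 3.02, 4.51 and 5.65 CPM on control RNAi in VC3201, against 5.18, 6.44 and 6.12 CPM on cco-1 RNAi and 3.50, 3.28 and 3.56 CPM on control RNAi in N2. The VC3201 groups overlapped by 1 control library, and the N2 groups did not overlap. The change in VC3201 (-0.47) lost its call once part of the quantile normalization was undone, at -0.18 (adjusted p = 0.257), while the strain difference kept it at -0.94 (adjusted p = 0.000438).

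With elt-2 RNAi the difference was positive for cyp-33C8 (3.37), cyp-13A5 (2.25), cyp-43A1 (1.92), cyp-36A1 (1.74), cyp-32A1 (1.07), cyp-33C4 (1.02), cyp-14A1 (0.93) and cyp-33C5 (0.86). It was negative for cyp-25A2 (-1.91), cyp-37A1 (-1.66), cyp-13B2 (-1.51), cyp-29A3 (-1.30), cyp-29A4 (-1.29), cyp-35A2 (-1.29), cyp-35A3 (-1.23) and cyp-31A5 (-1.21). Nothing is read from those of cyp-14A1, cyp-35A2 and cyp-35A3, since the change of the strain that fell more, taken from the control level of the other, would end below 0 on the log2(CPM + 1) scale, at -0.33, -0.09 and -0.33. For cyp-13B2 and cyp-29A4 that level was 0.10 and 0.25, just above the floor.

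cyp-29A3, another enzyme that makes eicosanoids from eicosapentaenoic acid, had 1.13, 1.42 and 1.20 CPM on elt-2 RNAi and 6.03, 6.68 and 7.12 CPM on control RNAi in VC3201. In N2 it had 3.96, 4.33 and 4.65 CPM on elt-2 RNAi and 5.78, 6.68 and 6.38 CPM on control RNAi, so it fell in both strains and by more in VC3201. Between the settings of normalization, the median of all genes for the elt-2 strain difference moved by 0.17.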

How the results depend on the processing

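The counts of changed members stayed within 1.5 times the reported ones in the 11 comparisons under each alternative tried. The nearest to that limit was VC3201 against N2 on control RNAi, at 18 members when only the groups compared were fitted, against 27. Leaving out each library in turn gave 32 to 36 members for cco-1 RNAi in N2, 30 to 37 for elt-2 RNAi in N2, 22 to 24 for the interaction, 20 to 27 for VC3201 against N2 on control RNAi, 32 to 35 for cco-1 RNAi in VC3201 and 45 to 47 for elt-2 RNAi in VC3201. Of 230 pairs of a named gene and a comparison, none turned its direction, 22 lost the call without some library and 17 under another alternative. Outside these pairs, with the quantile normalization partly undone, cyp-25A4, cyp-25A3, cyp-31A1, cyp-33E1 and cyp-33E2 with elt-2 RNAi in VC3201 and cyp-33C4 with cco-1 RNAi in VC3201 changed sign, and of these only cyp-25A4 was then called (0.29, against -0.38). Other members, not called as deposited, changed sign and were then called higher. These were cyp-25A3 (0.32) and cyp-33E2 (0.32) with both RNAi against cco-1 RNAi in VC3201. In the strain difference of the elt-2 RNAi response they were cyp-33A1 (0.31), cyp-33E1 (0.52) and cyp-33C9 (0.34).

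A fit with the replicate number as a replicate block gave 35 members for cco-1 RNAi and 32 for elt-2 RNAi in N2, and it ended no call of a named gene. Correlations of the deviations of same-numbered libraries ran from -0.0849 to 0.150, so the numbers are not taken to pair the samples, and 14 of 24 exceeded the highest correlation with another number. Depth limits the genes near 0.1 CPM, which rest on a few reads per library. The number of reads behind 1 CPM also differed by group, most of all within VC3201, so comparisons there depend more on the normalization.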
